A study of Acipenser sturio with 24 samples.

Results

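The transcriptomes of sturgeon embryos in mid neurula were compared with those of embryos at neural tube closure. The comparison takes 6 of the 24 whole-embryo libraries of the series. Mid neurula is represented by Nieuwkoop-Faber (NF) stages 15, 16 and 18, and neural tube closure by stages 19, 20 and 22, with 1 library for each stage. The NF table was drawn up for the frog Xenopus, so a stage number names a sturgeon embryo by its likeness to a frog embryo. The features are assembled transcript components, and a component was kept when its deposited value was 1 or more in at least 3 of the 6 libraries. This left 27585 of 275906 components (10.0%).

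All libraries were made from whole embryos of Bester, a hybrid of beluga (Huso huso) and sterlet (Acipenser ruthenus), raised in MMR, a dilute salt solution, with no experimental treatment. The organism field instead reads Acipenser sturio. RNA was depleted of ribosomal RNA rather than selected for poly(A) tails, so transcripts without a tail can be present. The number of embryos or clutches behind a library is not in the labels, and in a whole-embryo library a change in the number of cells of a type and a change in RNA per cell cannot be told apart.

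Neurulation turns the flat neural plate on the back of the embryo into a tube. The plate is induced in the ectoderm during gastrulation, its edges rise as folds, and the folds meet and fuse over the midline. In vertebrates the same period sees the notochord extend, the paraxial mesoderm divide into somites and neural crest cells leave the fold edges, while RNA that the mother stored in the egg is still being replaced by RNA from the embryo's own genome. The deposited components carry identifiers but no gene names, so none of these processes could be followed by its marker genes, and the window names rest on the staging alone.

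The number of detectable components was higher in every closure library than in every mid neurula library. Components at a value of 1 or more numbered 17248, 21245 and 26417 at stages 15, 16 and 18, against 35688, 35701 and 37882 at stages 19, 20 and 22. The means were 21637 ± 4597 (SD, n = 3) and 36424 ± 1263 (SD, n = 3), a difference of 14787 components (exact two-sided permutation p = 0.1, the smallest that 3 against 3 libraries allow). The mid neurula libraries were spread widely and the closure libraries lay close together. At a value of 5 or more the means were 6124 ± 861 and 8591 ± 442 (SD, n = 3 each), and the groups again did not overlap. With median-of-ratios scaled values at 1 or more the difference was 8837 components, from 27726 ± 3588 to 36563 ± 1716 (SD, n = 3 each, exact permutation p = 0.1). The summed value was lowest at stage 15 (385506) and highest at stage 22 (526940).

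Abundance was spread over more components at closure. Each library's top 10 components by value made up 51.8%, 48.9% and 44.4% of its sum at stages 15, 16 and 18. At stages 19, 20 and 22 they made up 36.8%, 35.8% and 34.6%. The window means were 48.4% ± 3.73 and 35.7% ± 1.09 (SD, n = 3 each), a difference of -12.7 percentage points (exact two-sided permutation p = 0.1, the smallest possible). A fixed set of 10 components, chosen for the highest mean share over the 6 libraries, shows where this lay. The most abundant of these held 22.3%, 23.4% and 19.5% of the summed value at stages 15, 16 and 18, and 18.3%, 16.5% and 16.8% at stages 19, 20 and 22. The next held 17.1%, 13.5% and 11.0%, then 10.5%, 10.9% and 10.6%. Neither of these 2 passed the test described below (limma adjusted p = 0.0737 and 0.0875). Of the 10, 9 had a negative change and 4 passed the test described below, all of them lower at closure. The 1 with a positive change went from 0.194% at stage 15 to 1.41% at stage 20 and 1.13% at stage 22, but it did not pass (limma adjusted p = 0.211). Over all tested components 18.8% passed and 4.41% were lower. The 10 were chosen from the compared values, so a component can enter through the window where it is high. The last of the 10 held 2.39% at stage 15 and 0.0663% at stage 22. The counts for the 10 therefore carry no test of abundant components. They were made with 1 scaling, and the balance among abundant components turns with the scaling, as given below.

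Depth can set how many low components are detected. The number of reads is unknown, because the values were normalized before deposit. Low values are multiples of what a single read is worth. Their most frequent ratio between a pair of libraries therefore compares reads per unit of value. All 15 library pairs lay within 0.1 (log2) of 1 fitted set of such relative values. Stage 20 had the lowest number of reads per unit of value. Relative to it, stages 15, 16 and 18 had 1.91, 1.55 and 1.62 times as many, and stages 19 and 22 had 1.80 and 1.47 times as many. Stage 15 had the highest value, and the 2 windows overlap on this measure. It is not the number of reads in a library, and whether depth bears on the number of detected components was not tested.

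The labels do not record it, but the libraries of the series fall into 2 sets. The leading principal component of the residuals about a smooth stage curve, over 1875 abundant components, held 34.8% of the residual variance and separated stages 0, 13, 16, 19, 24, 29 and 36 (set B) from the other 17 libraries (set A). Each window of this comparison has 1 library of set B, stage 16 in mid neurula and stage 19 at closure, so the sets are balanced between the windows. Across the tested components stage 16 correlated with stage 19 at a Spearman coefficient of 0.718, and stage 15 with stage 19 at 0.593. Other pairs across the sets lay on both sides of 0.718. Stages 15 and 16 stood at 0.817, and stage 19 with stages 18, 20 and 22 at 0.735, 0.749 and 0.745. Stage 16 with stages 20 and 22 stood at 0.607 and 0.570. The pairs thus did not sort by set alone. Stage 18 correlated with the other mid neurula libraries at 0.734 and 0.697, and with stages 20 and 22 at 0.799 and 0.786. Stage 18, the oldest mid neurula library, thus stood nearer to those closure libraries than to its own window on this measure, and the spread within the window includes that development.

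Window means were compared on log2(scaled value + 1) with limma, in a model over all 24 libraries in 8 windows of neighbouring stages. A component was called at a Benjamini-Hochberg adjusted p threshold of 0.05 over all 27585. Between mid neurula and closure 5186 components were called, which is 18.8% of those tested. Of these, 3969 rose (14.4%) and 1217 fell (4.41%). The rises had a median log2 change of 1.12, with a median SE of 0.29, and the falls of -1.18, with a median SE of 0.31. A change of at least 4-fold on this scale was reached by 213 components that rose and 71 that fell. The largest changes were 4.07 and -3.98.

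**Figure D1:**
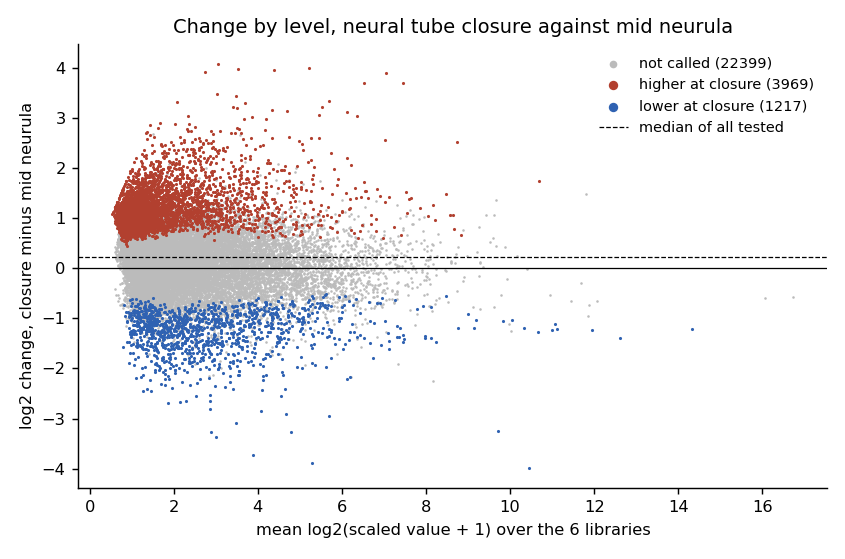
Log2 change from mid neurula to neural tube closure (vertical axis) against the mean log2(scaled value + 1) over the 6 libraries (horizontal axis), 1 point for each of 27585 components. The 3969 components called higher are red and the 1217 called lower are blue; the dashed line is the median of all tested, 0.23, and calls that rose crowd at low levels.

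The excess of rises over falls depends on how the libraries are scaled. The median change over all tested components was 0.23 with the median-of-ratios factors used here, and 0.05 to 0.52 with 4 other scalings. Rises made up 76.5% of the calls, against 94.1% with values as deposited, 88.6% with equal column totals, 68.5% with a trimmed mean and 59.3% with ratios taken over the 6 libraries alone. When each change was tested against the median change in place of 0, 2010 components lay above it and 2098 below. Centring on the median of the same changes favours such an even split. The filter also bears on direction. Of the 6313 components that only just met it, with exactly 3 libraries at 1 or more, 2437 had all 3 at closure and 145 had all 3 in mid neurula. Calls in either direction numbered 1796 among the 6313, against 5186 among all 27585 tested. Those 1796 were not split by direction. The lowest of the 3 qualifying values of the 6313 had a median of 1.19. The 9804 components with 2 such libraries were left out, and the highest of their values that missed 1 had a median of 0.75. A filter that does not read these 6 libraries, a mean of 1 or more over the other 18, gave 2080 that rose and 993 that fell among 22675.

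How many components pass depends on which libraries estimate the spread. With only the 6 libraries of this comparison, limma called 0 components, while 6199 (22.5%) had an unadjusted p under 0.05. The median residual SD was 0.43 (log2) with 4 degrees of freedom in that fit and 0.39 with 16 in the fit over all libraries. With library set as a term, the 6 libraries gave 101 calls and all 24 gave 6415 (23.3%). A slope over the order of the 6 stages, fitted to these libraries alone, called 3591 components (13.0%), of which 2624 rose and 967 fell. The median SD within a window was 0.46 for mid neurula and 0.32 for closure. It was lowest, 0.05, for the 2 blastula libraries of stages 8 and 9, which leave 1 degree of freedom. Pooled from the mean variance, the SDs were 0.60, 0.46 and 0.20. The fit over all libraries thus takes part of its spread from quieter stages. A test that asks for more than a 2-fold change called 13 components (0.0471%), 6 higher and 7 lower. Leaving out single libraries gave 2120 calls without stage 15, 3132 without stage 16, 8557 without stage 18 and 3095 without stage 22.

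The direction of change was mostly shared by the 2 library sets. A fit to set A alone called 3349 components (12.1%), with 2604 that rose and 745 that fell. Set B, which that fit did not use, has only stage 16 and stage 19. From stage 16 to stage 19, 3113 of the 3349 (93.0%) moved in the direction of set A, against 74.0% of all tested components. The components called higher in set A had a median log2 change of 1.21 there and 1.10 in set B. Those called lower had -1.31 and -1.05. The filter did read stages 16 and 19. The 2437 components kept through the 3 closure libraries alone had a higher deposited value at stage 19 than at stage 16 by rule. The shared direction among rises is therefore partly fixed by the filter. Set B holds 1 library a window and gives no test of its own.

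**Figure D2:**
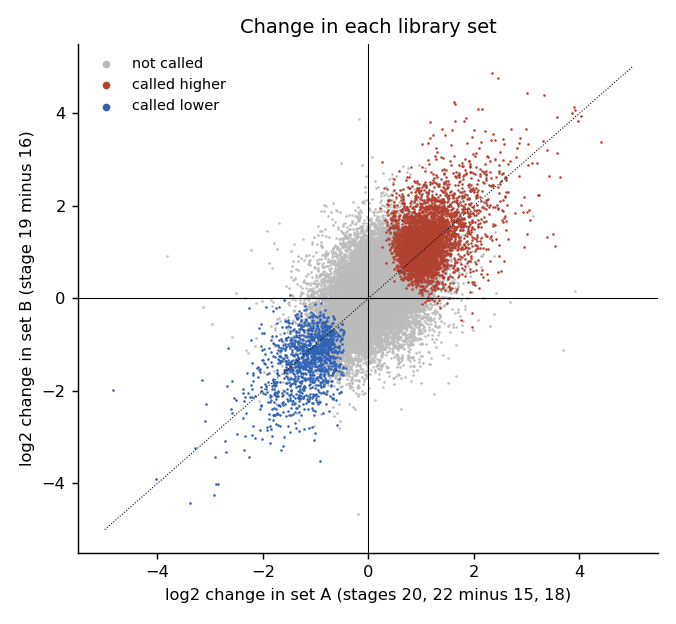
Log2 change in set A, the mean of stages 20 and 22 minus the mean of stages 15 and 18 (horizontal axis), against that in set B, stage 19 minus stage 16 (vertical axis), 1 point for each of 27585 components, coloured by the call over all libraries. The dotted line marks equal change; the calls used both sets, so the placing of the coloured points in the upper right and lower left is partly fixed by the choice.

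Only 4 components are named, since the identifiers are not paired with genes. They have the highest and the lowest changes among called components whose deposited values did not overlap between the windows. With deposited values, 9047 tested components (32.8%) had all 3 closure libraries above all 3 mid neurula libraries and 810 (2.94%) had them below. With scaled values these were 5510 (20.0%) and 1929 (6.99%).

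The component comp263767_c2 had the highest change. Its deposited values were 0, 0.24 and 4.18 in the libraries of stages 15, 16 and 18, then 12.2, 49.8 and 55.4 in those of stages 19, 20 and 22. It climbed at every stage of the comparison and the windows did not overlap. The means were 1.47 ± 2.35 and 39.1 ± 23.5 (SD, n = 3 each), and the change was 4.07 on the log2 scale (SE 0.52, limma adjusted p = 5.78e-05). Set A gave 4.42 (limma adjusted p = 0.000532) and set B 3.38. Before stage 15 it was listed at 0 in every library but stage 9, where it stood at 0.40. It stayed between 33.4 and 116 from stage 23 to stage 36.

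The component comp244200_c0 was listed at 0 at stage 15 and stood at 1.43 at stage 16 and 39.4 at stage 18. It then reached 47.0 at stage 19, 106 at stage 20 and 105 at stage 22. On the deposited scale its larger gain was from stage 18 to stage 20. On the log2 scale used for the change, the larger gain was from stage 15 to stage 18, within mid neurula. The means were 13.6 ± 22.4 and 86.0 ± 33.8 (SD, n = 3 each), and the log2 change was 3.96 (SE 0.84, limma adjusted p = 0.00309). Without stage 15 the change was 2.76. It had not exceeded 0.61 at any earlier stage, and it went on to 484 at stage 29.

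The component comp269426_c0 had the lowest change and was itself among the 10 most abundant. It stood at 9231 at stage 15, 3791 at stage 16 and 1798 at stage 18, then at 340 at stage 19, 354 at stage 20 and 349 at stage 22. It decreased at every stage up to 19 and was level within closure, with means of 4940 ± 3847 and 348 ± 6.66 (SD, n = 3 each). The log2 change was -3.98 (SE 0.85, limma adjusted p = 0.00338). The low level was not permanent: it stood at 414 at stage 23, 3284 at stage 24 and 4574 at stage 32, and it had been at 297 at stage 13.

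The component comp208258_c0 stood at 327 at stage 15, 21.4 at stage 16 and 170 at stage 18, and at 6.52, 13.1 and 8.42 at stages 19, 20 and 22. The stage 16 library lay far below its neighbours and near the closure values. The means were 173 ± 153 and 9.35 ± 3.39 (SD, n = 3 each), and the change was -3.89 on the log2 scale (SE 1.02, limma adjusted p = 0.0121). In set A the change was -4.85 and in set B -1.99, and without stage 15 the call was lost at a change of -3.00 (limma adjusted p = 0.0823). It was uneven over the whole series, with 416 at stage 12, 8.47 at stage 13 and 126 at stage 32. In the fit to the 6 libraries alone none of the 4 passed, with limma adjusted p from 0.0645 to 0.0968.

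**Figure D3:**
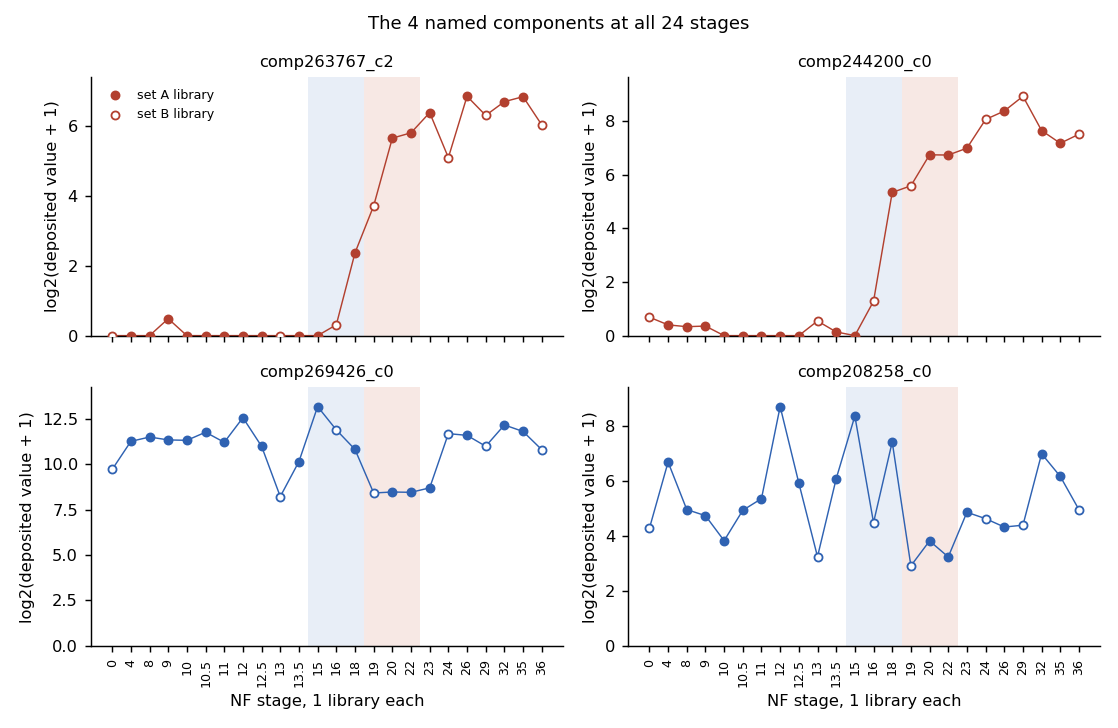
Log2(deposited value + 1) of the 4 named components (vertical axes) at all 24 NF stages in order (horizontal axes, not to time), with set A libraries as filled and set B libraries as open points and 1 library a stage. Mid neurula is shaded blue and closure red; the upper 2 components leave values near 0 inside the shaded stages, and the lower 2 are uneven at other stages too.

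Components that rose were mostly of low abundance, and those that fell were more often abundant. The median level over the 6 libraries, as a scaled value, was 1.85 for components that rose, 6.21 for those that fell and 2.53 for all tested. Below a level of 2, 2133 of 11074 components rose (19.3%) and 174 fell (1.57%). Between 5 and 20, 622 of 5954 rose (10.4%) and 441 fell (7.41%). At 100 or more, 40 of 370 rose (10.8%) and 48 fell (13.0%). The balance at high level turns with the scaling, since equal column totals gave 62 that rose and 27 that fell at 100 or more. Under all 5 scalings the share of calls that fell was higher at 100 or more than below 2. The value + 1 scale understates changes at low level, and components near 1 are also the ones that the filter admits through 1 window.

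**Figure D4:**
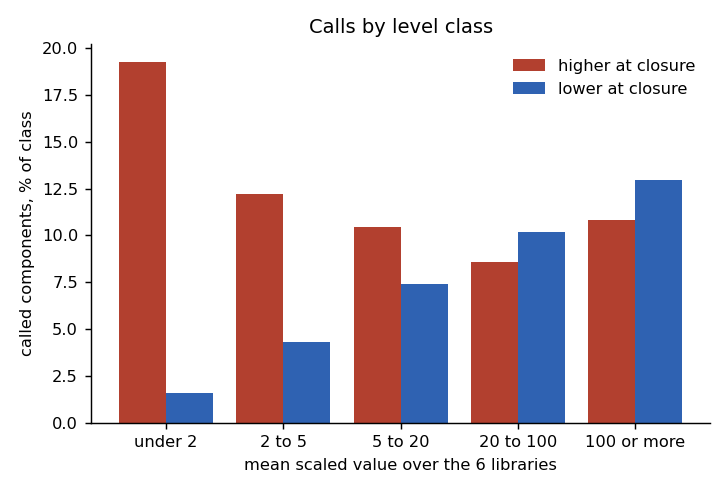
Percentage of tested components called higher (red) or lower (blue) at closure (vertical axis) in 5 classes of mean scaled value over the 6 libraries (horizontal axis). Rises go from 19.3% below a level of 2 to 10.8% at 100 or more, and falls from 1.57% to 13.0%.

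Few components switched fully on or off between the windows. Deposited values under 0.5 in all 3 mid neurula libraries and of 1 or more in all 3 closure libraries were held by 653 of the 27585 tested components. The opposite pattern was held by 30. All counts of this kind use deposited values, and none was made with scaled values. Scaling bears on such a balance. All 3 closure libraries lay above mid neurula in 32.8% of tested components as deposited and 20.0% scaled, and below in 2.94% and 6.99%. The 653 reached a median closure mean of 1.59, and 13 of them reached 5 or more, up to 12.9. Of the 653, 594 had been under a scaled value of 0.5 in all 7 libraries of stages 0 to 11, against 12546 of all 27585 tested (45.5%). Of the same 653, 128 stayed at 1 or more in all 7 tailbud libraries of stages 23 to 36. That count was not made over all tested components, so it does not show whether 128 is many or few. The sets of 653 and 30 were picked by the compared values, so they carry no test. Complete absence was rarer still, with 50 components listed at 0 in all mid neurula libraries before a value of 1 or more in all closure libraries, and 3 in the reverse order.

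The history of the called components was read from stages outside the 2 compared windows. Those libraries are not in the compared window means, but they enter each change through the scaling factors. The factors rest on components above 0 in every library, so the history is not independent of the change. These outside libraries also supply part of the spread behind each call. A component at 0 in all of them adds no spread there and passes more easily. Presence in early embryos was defined as a scaled value of 1 or more in all 7 libraries of stages 0 to 11, when much of the RNA of a vertebrate embryo is still of maternal origin. It held for 919 of the 1217 components that fell (75.5%), for 519 of the 3969 that rose (13.1%) and for 9041 of all 27585 tested (32.8%). A scaled value under 0.5 in all 7 was held by 230 of those that fell (18.9%), 2788 of those that rose (70.2%) and 12546 of all (45.5%). Read the other way, 10.2% of early-present components fell and 5.74% rose, while 1.83% of early-absent components fell and 22.2% rose. The direction within the early-present class depends on scaling, with 519 up and 919 down here but 957 up and 501 down with equal column totals. In all 5 scalings a larger share of the early-present than of the early-absent components fell, and the median change of the early-present class was the lower. An early-absent component can enter the table only through its values at later stages, which favours rises in that class.

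The median over the components that fell was level until stage 16, though single components were not all so. Of them, 39.9% had their highest window mean in mid neurula, against 18.1% of all tested components. For stages 12 to 13.5 these shares were 25.7% and 5.17%. A call as lower at closure favours a high mid neurula mean, so the mid neurula share is partly fixed by the choice. The median scaled value of the components that fell lay between 10.4 and 14.4 in the 11 libraries of stages 0 to 13.5. Those libraries lie outside the 2 windows. In the mid neurula libraries it was 11.9, 11.5 and 4.84, with the drop at stage 18, and in the closure libraries it was 3.26, 2.80 and 2.48. From stage 23 to stage 36 it stayed between 2.50 and 3.09. Their median thus stayed low, unlike the value of comp269426_c0. The share of the summed value held by all components that fell was 18.8% and 15.5% at stages 15 and 18, and 9.60% and 6.91% at stages 19 and 22. It had ranged from 14.5% to 27.2% at stages 0 to 13.5. This share rests in part on a few abundant components. One of them held 4.28% at stage 15 and 2.57% at stage 22, and comp269426_c0 held 2.39% and 0.0663%.

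The median over the components that rose was near 0 until shortly before the comparison, while 13.1% of them had been present throughout early stages, as given above. Their median scaled value was at most 0.0266 in the 8 libraries of stages 0 to 12 and between 0.102 and 0.147 at stages 12.5 to 13.5. In the mid neurula libraries it was 0.348, 0.585 and 1.45, and in the closure libraries 2.82, 2.75 and 3.16. Their share of the summed value went from 1.40% at stage 15 to 4.25% at stage 18 and 9.50% at stage 22, and lay between 9.78% and 12.6% from stage 23 to stage 36. The median over components that were not called went from 2.23 at stage 15 to 2.81 at stage 22. A small change in these libraries is favoured by the choice of that group.

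**Figure D5:**
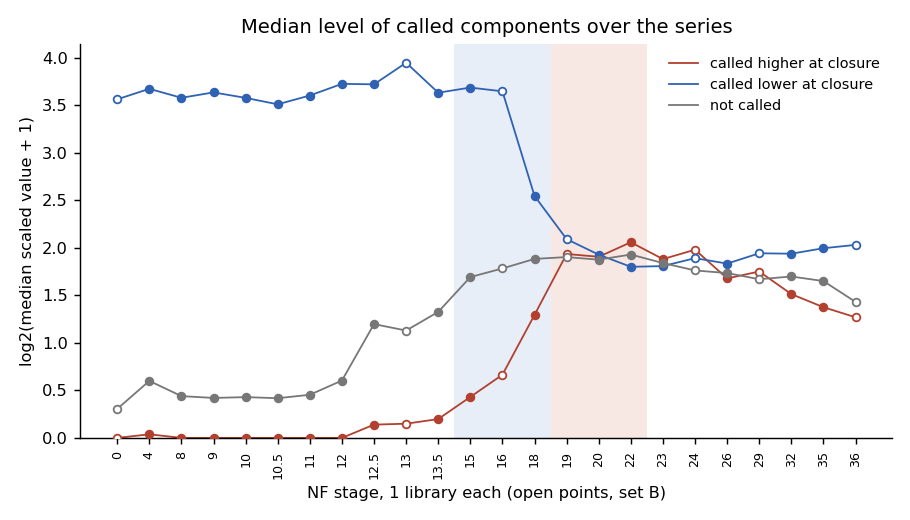
Median scaled value, as log2(median + 1) (vertical axis), of components called higher (red), called lower (blue) and not called (grey) at each of 24 NF stages in order (horizontal axis, not to time), with set B libraries as open points. Mid neurula is shaded blue and closure red; the values inside the shading chose the groups, while the level run of the blue line up to stage 13.5 and after stage 23 comes from libraries outside the 2 windows.

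Within the window stage 18 was intermediate. In set A, the median component that rose had completed 55.7% of its log2 change from stage 15 to stages 20 and 22 by stage 18, and the median component that fell 58.4%. The median step of the components that rose was 0.79 from stage 15 to 18, 0.60 from 18 to 20 and 0.12 from 20 to 22. For those that fell the steps were -0.92, -0.59 and -0.11. The call itself favours components that differ between stages 18 and 20 and are level within closure. Over all tested components the median steps were 0.33, 0.03 and 0.05, and a median of 74.0% of the change was complete by stage 18. The quartiles of that share were 31.1% and 118%, and it divides by a change that can be near 0. The stages are unequally spaced and their times are not in the labels, so a step is no rate. Of the components that rose, 2063 (52.0%) climbed at each of the 3 set A steps, against 16.0% of all tested, a pattern that the choice by window means favours.

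Changes after closure were compared with a contrast that shares no library with this one, late tailbud (stages 29 to 36) minus early tailbud (stages 23 to 26). Of all tested components 718 (2.60%) rose there and 1681 (6.09%) fell. Among the components that had risen at closure, 79 (1.99%) rose again and 653 (16.5%) fell. Among those that had fallen at closure, 91 (7.48%) rose and 56 (4.60%) fell. Among components not called at closure 2.45% rose and 4.34% fell. In set A alone 5.49% of the components that had risen fell later, against 1.98% of all. The contrasts share the estimate of spread, so a component of small spread passes both more easily, in either direction.

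The neighbouring steps were fitted on the same components. These were kept for their values in mid neurula and closure, so the filter favours rises into these windows, leaves out components that appear later, and bears on each count given here for the steps before and after. The step into mid neurula, from stages 12 to 13.5, called 48.3% of the 27585 components, and the step from closure to early tailbud called 2.24%. These share libraries with the closure step, so the difference between steps was tested itself. The closure step differed from the step before it in 2102 components (7.62%), with the closure step lower in 1535 and higher in 567. That direction rests on the scaling, since equal column totals gave 641 and 1247 and values as deposited 438 and 919. Without stage 16, 884 differed, with the closure step lower in 708 and higher in 176. The step after closure differed from the closure step in 932 components (3.38%), of which 858 had the lower change after closure, and this was the larger direction under each of the 3 scalings run. The count was 505 without stage 15, 4038 without stage 18, 396 without stage 19, 317 without stage 20 and 396 without stage 22.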

How the data were processed

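Abundances of assembled components were used for 24 whole-embryo libraries, 1 per stage. The deposited signal per component is an abundance that was normalized before deposit; its unit, the assembler and the genome build are not given in the sources used here. Per the submitters' processing notes, CASAVA 1.8.2, Trimmomatic, Bowtie and RSEM were named, with no role or order. All library columns were mapped through the labels. No count test was run, since the values are not counts.

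Libraries were scaled by the median of ratios over 15471 components above 0 in every library. The rule kept components at 1 or more in at least 3 of the 6 libraries. limma 3.58.1 (R 4.3.3) was fitted on log2(scaled value + 1), using its trend and robust options. The fit was also run on simulated data with independent noise in each library. Those data had no library sets and no development within a window, so that run cannot vouch for the calls given here. The p-values of the real data measure scatter of neighbouring stages, which includes development within a window, and not biological replicates. Per-library measures were compared by exact permutation. The named components are the 2 highest and 2 lowest changes among called, non-overlapping components. Reads per unit of value were compared from ratios of values between 0.2 and 1. The windows, classes and tests were chosen with earlier results of these data known. Alternatives covered scaling, pseudocount, filter, libraries and model.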

Additional observations from a re-analysis of the deposited data

How the results depend on the processing

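Alternatives that moved the 5186 calls by more than 1.5 times were a pseudocount of 0.1 (3197), no filter (8690), a value of 5 or more (1382), the 6 libraries alone (0 with limma, and 6199 at an unadjusted p under 0.05), these with a set term (101), set A (3349), a minimum fold of 2 (13), and, added after seeing the data, only the 13 libraries of stages 12 to 26 (3057) and a filter on the other 18 libraries (3073). Leaving out 1 library gave 2120 to 8557. The difference from the step before gave 1357 as deposited, 3297 with a set term, 1360 in set A (added) and 884 to 2803 with a library left out, and that from the step after 1400, 603 and 317 to 4038 with a set term, in set A and with a library left out. The late tailbud contrast called 879 of the 5186 components, and 302 in set A (added). Fewer libraries or components enter several of these fits; otherwise the cause was not tested. The number of detected components (12593 to 17177 more at closure with a library left out, 8837 with scaled values) and the share of the top 10 (-14.7 to -10.96 points) kept direction in every alternative run. The windows did not overlap on either measure, so leaving out a library could not turn the direction. The named components kept direction in 11 alternatives each. They were chosen as extreme changes whose deposited values did not overlap between the windows. Values as deposited, or leaving out a library, could therefore not turn their direction. The 6 libraries alone, and all libraries with a set term, gave the same change as the main fit. The kept direction is thus largely fixed by the choice and is no separate check. Since reads per library are not known, components close to the filter are the least certain. No paired analysis was possible because the labels give no replicate numbers.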

Other observations

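Identifiers of the form compN_cM place several components under 1 parent of the assembly, which can hold alleles of the 2 parental species, paralogs or pieces of 1 gene. Of the tested components, 9293 shared a parent with another tested component, under 3965 parents. Among 292 parents with at least 2 called components, 244 (83.6%) had all of these in 1 direction, 208 higher and 36 lower at closure, and 48 parents had called components in both directions. Of all calls 76.5% were higher, and whether parents share a direction beyond that was not tested. The sources used here do not say how reads were divided between components of a parent, so these are not independent measurements.

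Each library's top 100 components by value held 63.6%, 60.1% and 57.2% of its sum at stages 15, 16 and 18, and 47.0%, 47.6% and 46.2% at stages 19, 20 and 22. In a fixed 100, chosen for the highest mean share over the 6 libraries, 12 rose and 21 fell. That choice read the compared values, so a component can enter through the window where it is high. Over all tested components 14.4% rose and 4.41% fell. The median log2 change of the fixed 100 was -0.10, against 0.23 for all tested. These results used the median-of-ratios scaling alone, and the balance among abundant components turns with the scaling. At a level of 100 or more, 40 rose and 48 fell with that scaling. Equal column totals gave 62 and 27, and values as deposited 89 and 8. A trimmed mean gave 27 and 59, and ratios taken over the 6 libraries alone 24 and 76.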
